A study of Mus musculus with 16 samples.

Results

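The genes Dppa2, Dppa3, Dppa4, Dppa5a, Tdgf1, Fgf4, Utf1, Lin28a, Tcl1 and L1td1 are mouse genes known for their activity in early embryos, germ cells and pluripotent stem cells. They were taken as every probe set of the array whose single annotated gene symbol was 1 of these 10 names, which gave 17 probe sets out of 34945 probe sets of 18193 genes. Fgf4 had 4 probe sets, Utf1 had 3, Dppa2 and Lin28a had 2 each, and the other 6 genes had 1 each. The level of each was read on 16 single-colour Affymetrix arrays of 7 groups. There were 2 arrays of induced pluripotent stem cells (iPSC) of an aged haematopoietic origin, 2 of iPSC of a young haematopoietic origin and 2 of embryonic stem cells (ESC), 1 from Open Biosystems and 1 from Primogenix, so that the ESC pair also differs in supplier. Haematopoietic stem cells (HSC), which renew the blood, gave 2 arrays of aged and 2 of young transplanted cells, 3 from aged steady-state males (21 to 24 months) and 3 from young steady-state males (3 to 4 months). All cells were wild type on a C57Bl6 background, all pluripotent cells had been grown over mouse embryonic fibroblast (MEF) feeders, and the labels give neither an age nor a sex for the transplanted cells. Arrays of the same iPSC or HSC group are labelled as biological replicates, with no word on whether they came from separate animals or clones, so a p-value here reflects array-to-array spread within groups.

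Pluripotent cells hold a transcription factor circuit of Oct4, Sox2 and Nanog, and the genes described here are among the genes known to be on in that state and off in most adult tissues. Some act on chromatin and DNA methylation (Dppa2, Dppa4, Dppa3, Utf1), some carry signals between cells (Fgf4, Tdgf1), some bind RNA (Lin28a, Dppa5a, L1td1), and Tcl1 enhances AKT signalling. They are commonly used to judge whether reprogrammed cells have reached the state of ESC.

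Upstream sequences from RefSeq, build GRCm38.p6, were matched for 6 of the 10 genes, Tdgf1, Fgf4, Utf1, Lin28a, Tcl1 and L1td1. The 250 bases before the annotated start of the Fgf4, Tdgf1 and Utf1 genes are given because these genes all rose in pluripotent cells while their upstream bases differ widely in composition. Capitals mark the letters GGGCGG, GGGCGTGG or TATATATA on either strand, which were chosen after the sequences had been seen.
Fgf4, chr7:144861136-144861385, plus strand: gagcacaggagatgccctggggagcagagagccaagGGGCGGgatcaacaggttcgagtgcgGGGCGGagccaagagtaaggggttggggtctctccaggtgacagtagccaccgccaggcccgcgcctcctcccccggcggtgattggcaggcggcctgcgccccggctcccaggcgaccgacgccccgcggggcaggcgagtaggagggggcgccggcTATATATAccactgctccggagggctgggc
Tdgf1, chr9:110946159-110946408, minus strand: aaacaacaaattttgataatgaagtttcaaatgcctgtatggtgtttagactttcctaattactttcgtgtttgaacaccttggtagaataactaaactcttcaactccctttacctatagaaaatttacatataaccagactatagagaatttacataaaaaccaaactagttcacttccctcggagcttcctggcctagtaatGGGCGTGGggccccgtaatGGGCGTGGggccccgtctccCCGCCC
Utf1, chr7:139943606-139943855, plus strand: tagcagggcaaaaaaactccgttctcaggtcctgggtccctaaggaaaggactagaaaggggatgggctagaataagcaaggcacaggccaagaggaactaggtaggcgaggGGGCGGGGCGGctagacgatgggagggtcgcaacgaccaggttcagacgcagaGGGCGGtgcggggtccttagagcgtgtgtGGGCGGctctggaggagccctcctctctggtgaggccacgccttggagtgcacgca
The Fgf4 window held 21 CpG dinucleotides and 71.2% G or C, the Utf1 window 14 and 61.6%, and the Tdgf1 window 7 and 42%, where the median over 32851 annotated starts was 6 CpG. GGGCGG, the letters of a GC box, occurred on either strand in Fgf4, Tdgf1, Utf1 and Tcl1, and in 32.7% of all such windows; the Utf1 window held 4 copies, of which 2 overlap. GGGCGTGG or its reverse CCACGCCC occurred in Tdgf1, in 2 copies, and in L1td1, and in 4.79% of all windows. TATATATA occurred in Fgf4 alone and in 0.737% of all windows, and TATAAA (12.4%) in none of the 6. The octamer ATGCAAAT (in 1.6% of all windows), the ESRRB letters TCAAGGTCA (0.387%) and the KLF letters CCACACCC (3.2%) were searched on both strands and not found in any of the 6 windows. The SOX letters ACAATG (10.7%) were found in Lin28a alone, as the reverse CATTGT. The Lin28a window, chr4:134018817-134019066 on the minus strand, lies inside the annotated Lin28a gene, which spans 134003330 to 134019196.

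The pluripotency and HSC marker genes separated the arrays by their labels. All 6 measured pluripotency markers were higher on each of the 6 iPSC and ESC arrays than on any HSC array, and all 7 measured HSC markers were higher on each of the 10 HSC arrays. The median intensity lay between 43.52 and 51.94 over the arrays, with the transplanted HSC arrays highest. The arrays give no detection calls. A level was therefore called dim when it lay below the 25th percentile of all single-symbol probe sets on the same array, a limit between 4.29 and 4.52 on the log2 scale. On this scale the summed level of 8 fibroblast markers was 8.76 to 9.60 on iPSC arrays and 9.44 to 9.49 on ESC arrays, against 8.41 to 8.77 on HSC arrays; 2 of the 8 were higher on every pluripotent array. The part of feeder RNA in the levels below was not tested. Of 6 listed mature blood markers 3 were measured. Itgam and Hba-a1 were dim on every array. Cd3e was higher on each pluripotent array (6.47 to 6.73 log2) than on any HSC array (4.43 to 6.09), and the reason was not tested. In bulk samples, fewer cells of a type and less RNA per cell cannot be told apart.

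**Figure D1:**
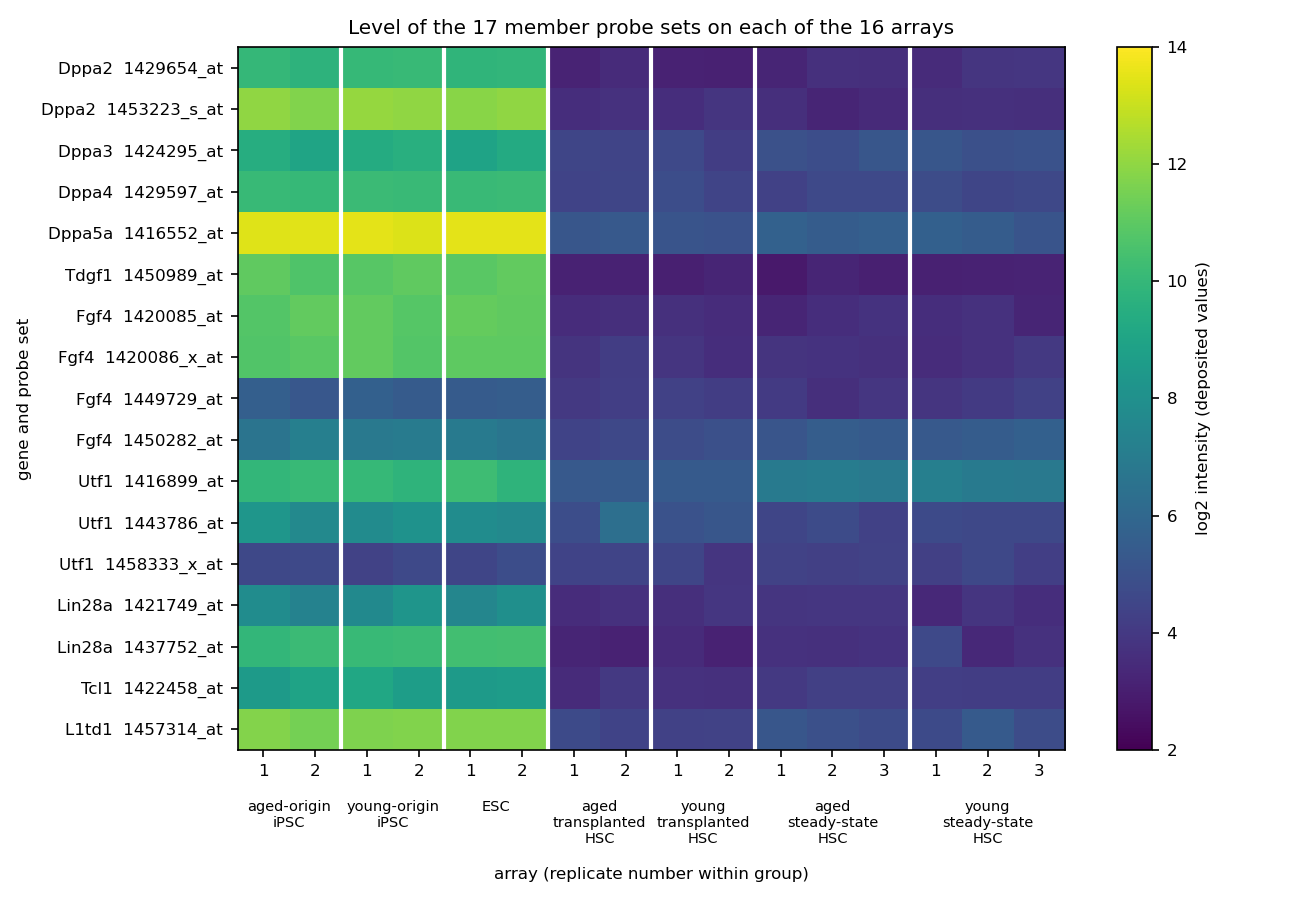
Log2 intensity of the 17 probe sets (rows) on each of the 16 arrays (columns, numbered within their group), with the colour scale in log2 units. For 16 of the 17 probe sets, all iPSC and ESC arrays lie above all steady-state HSC arrays, where 57.4% of all probe sets do not overlap in either direction between iPSC and steady-state HSC and 61.2% between ESC and steady-state HSC; Utf1 1458333_x_at lies between 3.86 and 4.82 on every array.

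The comparison of iPSC with steady-state HSC asks how far the reprogrammed cells had moved from their tissue of origin for these genes. All 10 genes were higher in iPSC (limma, adjusted p under 0.05), with 16 of 17 probe sets called higher and 0 lower, where 39.1% of the 26209 probe sets tested across the array were called higher. Utf1 1458333_x_at did not pass the filter on dim probe sets. Without that filter 17 were tested and again 16 were higher, where 36.5% of all 34945 probe sets were called higher. A probe set can pass this filter through its level in the pluripotent arrays alone. The median difference of the 17 probe sets was 5.52 log2, against 0.17 log2 for all probe sets. ESC gave the same count of 16 higher and 0 lower against steady-state HSC, where 31.6% of all probe sets were called higher, and a median difference of 5.56 log2. Both comparisons use the same HSC arrays, so their values are given side by side and are not independent. Where the HSC level is dim, the fold is read against values near the lower end of the array.

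The 4 Dppa genes were named for developmental pluripotency. Dppa2 and Dppa4, which neighbour each other in the RefSeq annotation of chromosome 16, encode SAP-domain proteins that bind chromatin together. Dppa2 1453223_s_at stood at 12.02 and 11.72 log2 on the aged-origin iPSC arrays, 12.09 and 12.01 on the young-origin iPSC arrays and 11.86 and 12.00 on the ESC arrays, against a lowest, median and highest value of 3.22, 3.60 and 3.65 in steady-state HSC. It was dim on all 10 HSC arrays and its groups lay far apart. The difference of iPSC minus steady-state HSC was 8.44 log2 (SE 0.12, adjusted p = 3.1e-15). The other Dppa2 probe set, 1429654_at, rose by 6.35 log2 in iPSC (SE 0.13, adjusted p = 5.43e-14) and by 6.25 in ESC (SE 0.17).

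Dppa4 1429597_at read 10.07 and 10.05 log2 in aged-origin iPSC, 10.20 and 10.13 in young-origin iPSC, and 10.13 and 10.18 in ESC, against 4.34, 4.63 and 4.80 (lowest, median, highest) in steady-state HSC. Its 6 pluripotent arrays spanned only 0.149 log2. It rose 45.9-fold in iPSC (5.52 log2, SE 0.12, adjusted p = 8.26e-14) and 47.2-fold in ESC.

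Dppa5a encodes a KH-domain RNA-binding protein. Its probe set read 13.41 and 13.46 log2 in aged-origin iPSC, 13.49 and 13.39 in young-origin iPSC, and 13.51 and 13.50 in ESC, against 5.12, 5.56 and 5.74 in steady-state HSC. The pluripotent arrays were tighter here than for any other of the 17 probe sets, with a range of 0.126 log2, and the HSC arrays lay above the dim limit on all 10. The difference was 7.92 log2 in iPSC (SE 0.12, adjusted p = 4.91e-15) and 7.99 in ESC (SE 0.16).

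Dppa3, also called Stella, protects the maternal genome from demethylation in the zygote and marks primordial germ cells. Dppa3 1424295_at read 9.49 and 9.02 log2 in aged-origin iPSC, 9.37 and 9.55 in young-origin iPSC, and 8.94 and 9.33 in ESC, against 4.97, 4.82 and 5.21 in aged and 5.22, 4.93 and 5.03 in young steady-state HSC. Of the 10 genes, each taken by its brightest probe set, it varied most among the 6 pluripotent arrays (SD 0.248), although the low arrays came from different groups, aged-origin iPSC array 2 and the Open Biosystems ESC. It rose 20.1-fold in iPSC (4.33 log2, SE 0.15, adjusted p = 5.97e-12) and 17.2-fold in ESC.

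Fgf4 is the growth factor through which pluripotent cells stimulate ERK in their neighbours. Fgf4 1420085_at read 10.81 and 11.10 log2 in aged-origin iPSC, 11.11 and 10.84 in young-origin iPSC, and 11.16 and 11.07 in ESC, against 3.23, 3.56 and 3.75 in steady-state HSC. It was dim on all 10 HSC arrays. It rose by 7.46 log2 in iPSC (SE 0.14, adjusted p = 2.12e-14), and 1420086_x_at rose by 7.17 (SE 0.13).

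The remaining Fgf4 probe sets gave far smaller differences. Fgf4 1449729_at rose 2.93-fold and 1450282_at 2.77-fold in iPSC, and 2.89-fold and 2.58-fold in ESC. In iPSC they read 5.27 to 5.67 and 6.64 to 7.17 log2, against 3.60 to 4.31 and 5.18 to 5.66 in steady-state HSC. The direction was thus common to all 4 Fgf4 probe sets, while the size depended on which one was read.

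Tdgf1, also called Cripto, is the membrane-anchored co-receptor of the TGF-beta family ligand Nodal. It read 11.06 and 10.68 log2 in aged-origin iPSC, 10.89 and 11.05 in young-origin iPSC, and 10.91 and 11.14 in ESC, against 2.81, 3.11 and 3.24 in steady-state HSC. All 10 HSC arrays were dim for it. The difference was 7.84 log2 in iPSC (SE 0.12, adjusted p = 5.77e-15) and 7.94 in ESC (SE 0.16).

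Utf1 is a chromatin-associated factor of undifferentiated embryonic cells. Utf1 1416899_at read 9.96 and 10.07 log2 in aged-origin iPSC, 10.03 and 9.79 in young-origin iPSC, and 10.27 and 9.81 in ESC, against 6.84, 6.93 and 7.20 in steady-state HSC. It was the brightest of the 17 probe sets on every steady-state HSC array, and its rise of 7.99-fold in iPSC (3.00 log2, SE 0.12, adjusted p = 4.85e-11) was the smallest among the brightest probe sets of the 10 genes. Utf1 1443786_at rose 10.4-fold (3.38 log2, SE 0.24). Utf1 1458333_x_at read 4.39 to 4.66 log2 in iPSC against 4.23 to 4.59 in steady-state HSC, with overlapping arrays and a difference of 0.21 (limma without the dim filter, adjusted p = 0.197).

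Lin28a encodes the RNA-binding protein that blocks maturation of the let-7 microRNAs. Lin28a 1437752_at read 9.93 and 10.16 log2 in aged-origin iPSC, 10.09 and 10.18 in young-origin iPSC, and 10.37 and 10.41 in ESC, against 3.38, 3.73 and 4.64 in steady-state HSC. The highest steady-state value, from young array 1, stood apart from the other 5, which reached 3.75. It rose 77.7-fold in iPSC (6.28 log2, SE 0.19, adjusted p = 2.15e-12) and 95.8-fold in ESC, and Lin28a 1421749_at rose 16.3-fold and 16-fold.

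L1td1, a LINE-1-derived RNA-binding protein of embryonic stem cells, read 11.79 and 11.51 log2 in aged-origin iPSC, 11.67 and 11.71 in young-origin iPSC, and 11.71 and 11.74 in ESC, against 4.69, 4.86 and 5.39 in steady-state HSC. It rose 104-fold in iPSC (6.71 log2, SE 0.15, adjusted p = 1.19e-13). Tcl1, a coactivator of the kinase AKT that is also known from T-cell leukaemia, read 8.55 and 8.96 log2 in aged-origin iPSC, 9.15 and 8.70 in young-origin iPSC, and 8.55 and 8.63 in ESC, against 3.97, 4.22 and 4.28 in steady-state HSC. It rose 25-fold in iPSC (4.65 log2, SE 0.14, adjusted p = 1.84e-12) and 21.1-fold in ESC. Neither gene's groups overlapped, and Tcl1 was dim on all 10 HSC arrays.

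**Figure D2:**
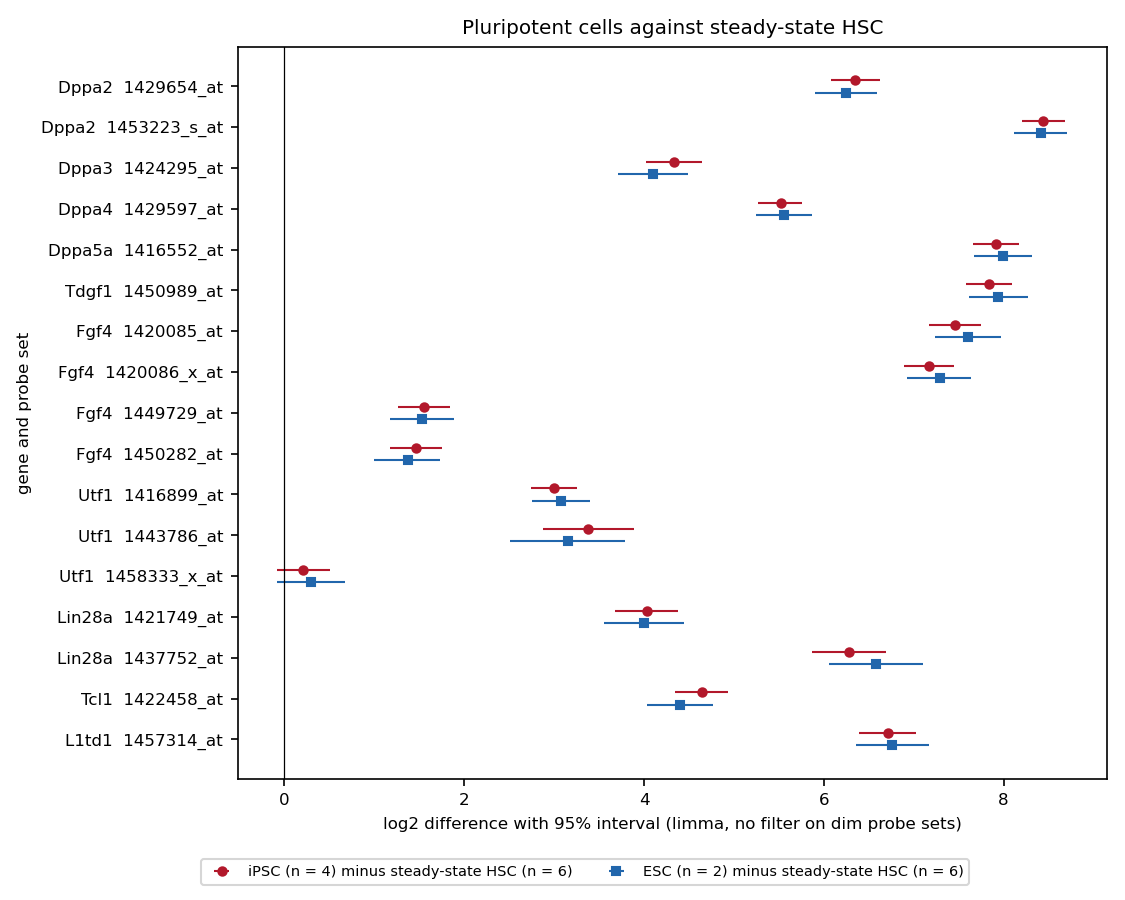
Log2 difference of iPSC (circles, n = 4) and ESC (squares, n = 2) minus steady-state HSC (n = 6) for each probe set, with 95% intervals from limma without the dim filter. The differences run from 0.21 to 8.44 for iPSC, and the intervals of both kinds of cell overlap for every probe set; the steady-state HSC arrays are shared.

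The comparison of iPSC with ESC asks whether the reprogrammed cells differed from embryo-derived ones. No member was called among 17 tested (limma; 1 had an unadjusted p under 0.05), where 0.0954% of all probe sets were called in either direction. The differences ran from -0.30 to 0.25 log2, and no 95% interval reached beyond 0.65 log2 in either direction. Lin28a 1437752_at had the largest of these differences and the only interval of the 17 that did not contain 0, at -0.30 log2 (-0.57 to -0.03, adjusted p = 0.356). Its 4 iPSC arrays, at 9.93 to 10.18, all lay below the ESC arrays, at 10.37 and 10.41. Lin28a 1421749_at did not share this, with 7.30 to 8.27 in iPSC and 7.51 and 7.98 in ESC (0.03 log2, -0.46 to 0.51).

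For the other genes the iPSC and ESC levels were close and their intervals contained 0. Tcl1 had a difference of 0.25 log2 (-0.12 to 0.62), Dppa3 one of 0.22 (-0.15 to 0.60) and Utf1 1443786_at one of 0.23 (-0.19 to 0.65). Dppa4 (-0.04, -0.29 to 0.21), Dppa5a (-0.07, -0.32 to 0.18) and L1td1 (-0.05, -0.33 to 0.22) had the narrowest intervals among the genes with 1 probe set. The iPSC and ESC arrays of Dppa5a did not overlap either, at 13.39 to 13.49 in iPSC and 13.50 and 13.51 in ESC, but all 6 lay within a range of 0.126. These 2 of the 17 probe sets did not overlap, where 21.7% of all probe sets did not. Tdgf1 had a difference of -0.11 log2 (-0.43 to 0.22), and the brighter Fgf4 probe sets had -0.15 and -0.12. With 2 ESC arrays, differences inside these intervals could not be resolved.

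Whether the age of the blood donor left a trace in the iPSC was asked with 2 aged-origin against 2 young-origin arrays. No member was called (limma, 17 tested, 0 with an unadjusted p under 0.05), where 0.0114% of all probe sets, 3 of 26209, were called. The median difference of the 17 probe sets was -0.09 log2, against -0.02 for all probe sets. Lin28a 1421749_at had the largest difference, with 7.84 and 7.30 log2 in aged-origin iPSC against 7.68 and 8.27 in young-origin iPSC (-0.41 log2, -0.97 to 0.15). The arrays overlapped, and the spread within the young-origin pair was larger than the difference between the groups.

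Both Dppa2 probe sets gave -0.18 log2 (-0.49 to 0.14 and -0.52 to 0.16), Dppa3 gave -0.20 (-0.64 to 0.23) and Tcl1 gave -0.17 (-0.60 to 0.26). Dppa5a gave 0.00 (-0.29 to 0.29), as did Utf1 1443786_at (-0.49 to 0.48) and Fgf4 1450282_at (-0.43 to 0.43). The aged-origin and young-origin arrays did not overlap for Dppa4, at 10.07 and 10.05 in aged-origin and 10.20 and 10.13 in young-origin iPSC (-0.10 log2, -0.39 to 0.19), nor for Dppa2 1429654_at, at 10.00 and 9.76 in aged-origin and 10.02 and 10.10 in young-origin iPSC. Those were 2 of the 17 probe sets, where 32.6% of all probe sets did not overlap, and the 95% intervals of both differences contained 0.

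**Figure D3:**
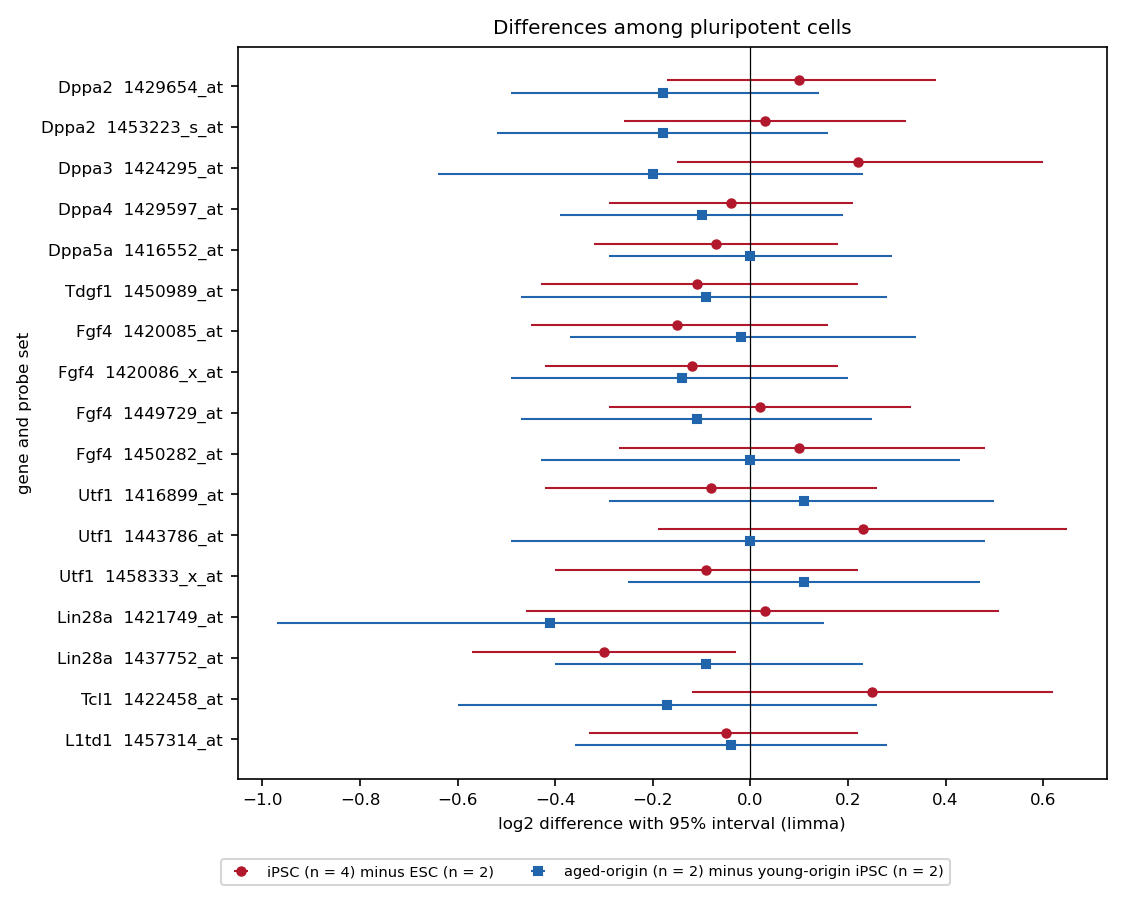
Log2 difference with its 95% interval from limma for each probe set, iPSC minus ESC (circles, n = 4 and 2) and aged-origin minus young-origin iPSC (squares, n = 2 each). Every interval contains 0 except that of Lin28a 1437752_at in iPSC minus ESC (-0.57 to -0.03).

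The HSC arrays show where these genes stood in adult blood stem cells. Only 7 of the 17 probe sets passed the dim filter among HSC, those of Dppa3, Dppa4, Dppa5a and L1td1, Fgf4 1450282_at, and Utf1 1416899_at and 1443786_at. The probe sets of Dppa2, Tdgf1 and Tcl1, Fgf4 1420085_at and 1420086_x_at, and Lin28a 1421749_at were dim on all 10 HSC arrays. On transplanted HSC arrays 10 or 11 of the 17 were dim, against 9 or 10 on steady-state HSC arrays.

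Between transplanted and steady-state HSC, 4 of the 7 tested probe sets were lower and 1 was higher (limma), where 69.2% of all probe sets were called in either direction; the members' share is near that background. Without the dim filter 7 were lower and 1 was higher among 17, where 62.2% of all probe sets were called. The setting and any difference in the preparation of these arrays cannot be told apart. Utf1 1416899_at read 5.36 and 5.41 log2 in aged and 5.39 and 5.40 in young transplanted HSC, against 6.84, 6.93 and 7.20 (lowest, median, highest) in steady-state HSC. It fell by 1.57 log2 with no overlap (SE 0.13, adjusted p = 2.17e-06). Utf1 1443786_at rose instead. It read 4.85 and 6.36 log2 in aged and 5.04 and 5.19 in young transplanted HSC, against 4.31, 4.59 and 4.76 in steady-state HSC (0.78 log2, SE 0.26, adjusted p = 0.019). Without aged transplanted array 2 the difference of this probe set was 0.41 (adjusted p = 0.0391), and its call was lost with a pseudocount of 64 (0.29, adjusted p = 0.0569) or a required 2-fold change.

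These 2 Utf1 probe sets differed in direction between the HSC settings, so no single direction is given for Utf1. Fgf4 1450282_at fell by 0.75 log2 (SE 0.14, adjusted p = 0.000676), to 4.43 to 4.94 in transplanted HSC, against 5.18 to 5.66 in steady-state HSC. Dppa3 fell by 0.59 (SE 0.15, adjusted p = 0.00514), to 4.17 to 4.63 against 4.82 to 5.22. L1td1 fell by 0.51 (limma, SE 0.18, adjusted p = 0.0242), with 4.34 to 4.69 in transplanted and 4.69 to 5.39 in steady-state HSC. It lost the call without aged transplanted array 2 (-0.45) or aged steady-state array 1 (limma, adjusted p = 0.0579), and with a pseudocount of 64 (-0.15, adjusted p = 0.0885). With a required 2-fold change the calls of L1td1, Dppa3 and Fgf4 1450282_at were all lost. Dppa5a had -0.35 (adjusted p = 0.0553), which was called with quantile normalisation (-0.47, adjusted p = 0.0119), median centring (-0.49, adjusted p = 0.0123) and some other alternatives, and Dppa4 -0.03 (adjusted p = 0.851).

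**Figure D4:**
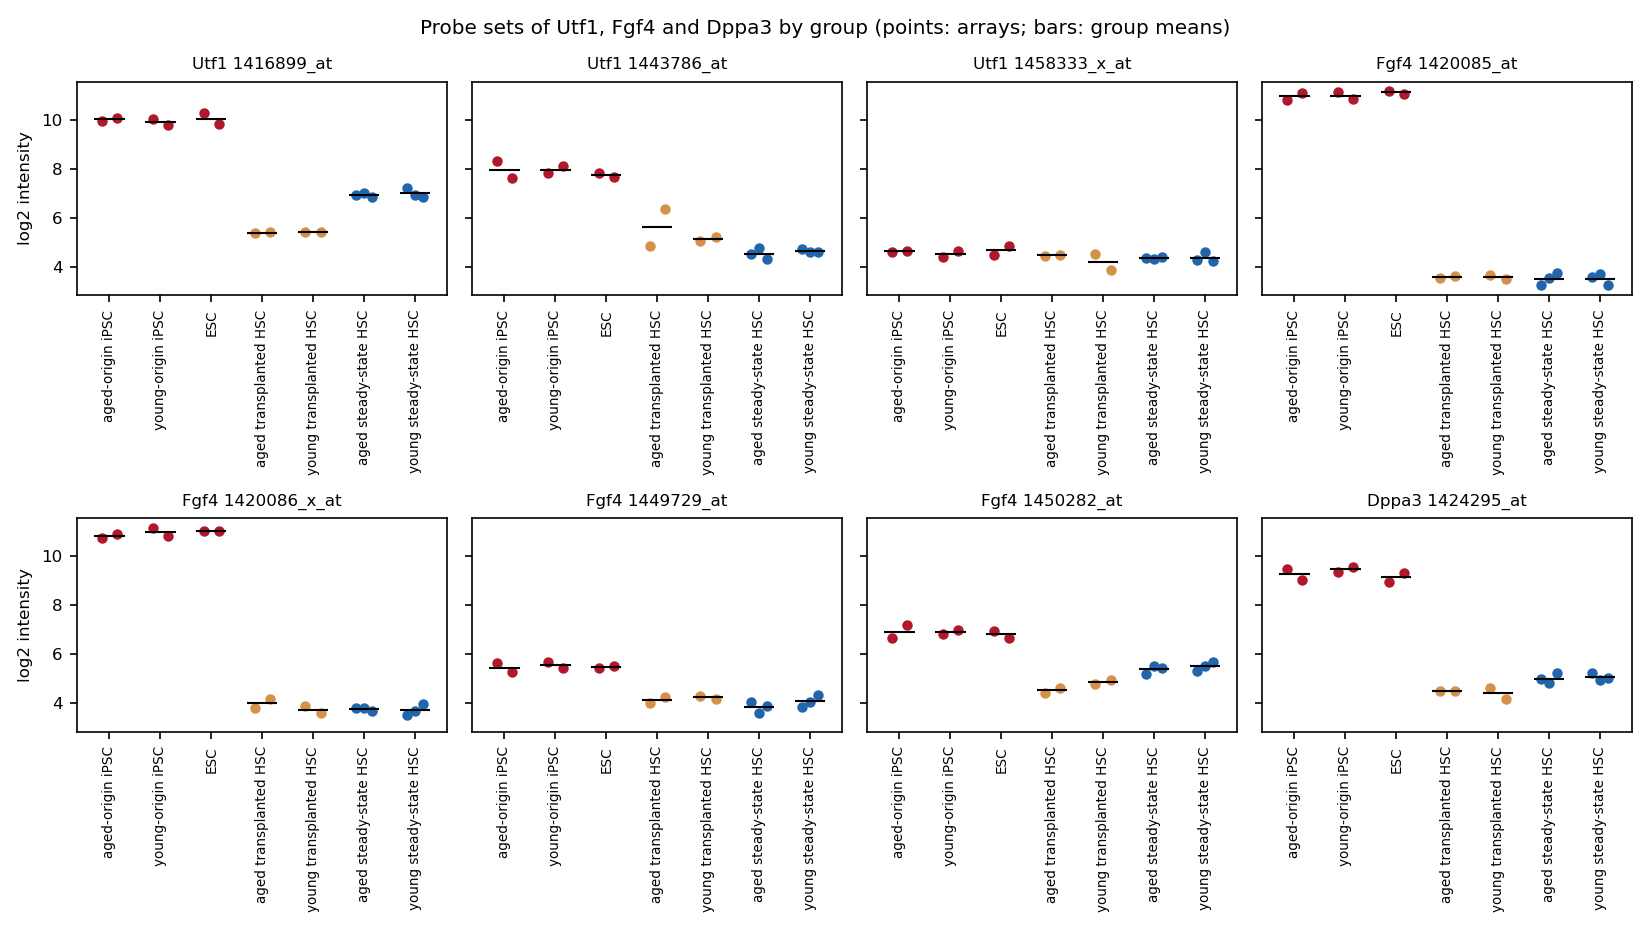
Log2 intensity by group for the 3 Utf1, 4 Fgf4 and 1 Dppa3 probe sets, with arrays as points and group means as bars. Utf1 1416899_at lies at 5.36 to 5.41 in transplanted and 6.84 to 7.20 in steady-state HSC, while Utf1 1443786_at lies higher in transplanted (4.85 to 6.36) than in steady-state HSC (4.31 to 4.76).

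Donor age was compared in both HSC settings. No member was called between aged and young transplanted HSC (limma, 7 tested, 0 with an unadjusted p under 0.05), where 0.954% of all probe sets were called, and none between aged and young steady-state HSC (7 tested, 0 with an unadjusted p under 0.05), where 0.759% were called. In transplanted HSC the largest difference was that of Utf1 1443786_at, at 0.49 log2 (-0.39 to 1.37, adjusted p = 0.636), where aged array 2 (6.36) stood above the other 3 arrays (4.85 to 5.19). Without aged transplanted array 1, which leaves that array alone in its group and assumes that it varies like the others, the difference was 1.24 and was called (adjusted p = 0.0452). In steady-state HSC the tested probe sets differed by -0.12 to 0.18 log2. Dppa5a had 0.18 (-0.23 to 0.59), Dppa3 -0.06 (-0.48 to 0.36) and Utf1 1416899_at -0.06 (-0.42 to 0.30), with overlapping arrays in each (limma, all adjusted p = 1).

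Genes that work with these members were read from lists, each gene by its brightest probe set, in iPSC against steady-state HSC. Over all genes read in this way, 41.4% of the 14288 tested rose and 33.1% fell, which is the background for the counts of each list. Of 14 core pluripotency factors, all 14 rose (median 4.86 log2, against 0.20 for all genes), among them Sox2 by 8.51 log2 and Nanog by 6.27 (SE 0.13 and 0.14), as did Nr0b1 by 6.74 and Zfp42 by 5.90. The 10 genes described here had a median of 6.49 log2 on the same footing. Of 15 measured genes of Nodal and Tdgf1 signalling, 9 rose and 6 fell (median 0.65), all 15 having been tested. The ligand gene Nodal rose by 5.21 log2 (SE 0.15, adjusted p = 9.37e-13), its inhibitors Lefty1 and Lefty2 rose by 4.73 and 5.08, and the ligand gene Gdf3 rose by 3.38.

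Of 14 measured FGF receptors and ERK response genes, 7 rose and 5 fell (median 0.23), shares near those over all genes. The receptor gene Fgfr2 rose by 2.77 log2 (SE 0.23), the ERK-responsive factor gene Etv5 by 3.09 and the feedback inhibitor gene Spry2 by 1.79, whereas Dusp6, a phosphatase that turns ERK off, fell by 2.35 (SE 0.22, adjusted p = 3.1e-07). Of 12 measured genes of the Lin28 and let-7 pathway, 11 were tested, of which 4 rose and 5 fell (median of the 12, -0.04), again near the shares over all genes. Trim71, itself a let-7 target, rose by 6.62 log2 (SE 0.12), and the RNA-binding genes Igf2bp3 and Igf2bp1 rose by 4.16 and 3.09, while Tut7, which uridylates let-7 precursors, fell by 2.24. Among 10 Tcl1 and AKT genes 3 rose and 4 fell (median 0.02), also near those shares. Tcl1b3 differed by 1.03 log2, the kinase gene Akt1 by -1.19, Pik3ca by -1.39 and Foxo3, a transcription factor that AKT restrains, by -2.55. The fall of Akt1 is against steady-state HSC only. In transplanted HSC Akt1 averaged 7.14 log2, below its iPSC mean of 8.11. Pik3ca (9.63) and Foxo3 (10.04) stayed above their iPSC means of 6.82 and 8.63 there, and Tcl1b3 (6.9) stayed below its iPSC mean of 10.93.

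Of 8 genes of DNA methylation, through which Dppa3 acts, 6 rose and 0 fell (median 0.83). Dnmt3l, the cofactor of the de novo methyltransferases, rose by 5.59 log2 (SE 0.15), Dnmt3b by 2.19, Dnmt3a by 1.77 and Dnmt1 by 0.88. These rises are against steady-state HSC only. In transplanted HSC Dnmt3a averaged 11.86 and Dnmt1 12.4 log2, above their iPSC means of 8.64 and 11.82. Dnmt3b (10.23) and Dnmt3l (5.21) stayed below their iPSC means of 12.28 and 10.63. No test of iPSC against transplanted HSC was made. Dppa2 and Dppa4 are known to switch on genes of the embryo's 2-cell stage. Of 5 measured genes of that kind, only Zfp352 passed the dim filter, and it rose by 0.66 log2 (SE 0.13) in iPSC. In ESC it differed from steady-state HSC by 0.35 log2 and was not called (limma, adjusted p = 0.0784). Of 7 primordial germ cell genes 5 were tested, of which 4 rose and 1 fell. Mael (4.06 log2) and Dazl (1.32) did not pass the dim filter. In this list Tfap2c rose by 6.98 log2 and Kit, a receptor that HSC also carry, fell by 4.88. Of 9 genes of primed pluripotency 6 were tested and all 6 rose (median of the 9, 1.26), and Otx2, which was not tested, differed by 2.66. Of 9 extraembryonic genes 6 were tested and 4 rose (median of the 9, 0.53). Of 12 fibroblast and feeder genes 8 were tested, of which 5 rose and 0 fell (median of the 12, 0.55). The matrix gene Fn1 had the largest rise of the list, 22.6-fold (4.5 log2, SE 0.36). Col5a2 rose by 1.56 log2, Thy1 by 1.39 and Col1a1 by 0.44. All 13 measured HSC genes fell (median -5.42). No gene of these lists was called between iPSC and ESC.

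**Figure D5:**
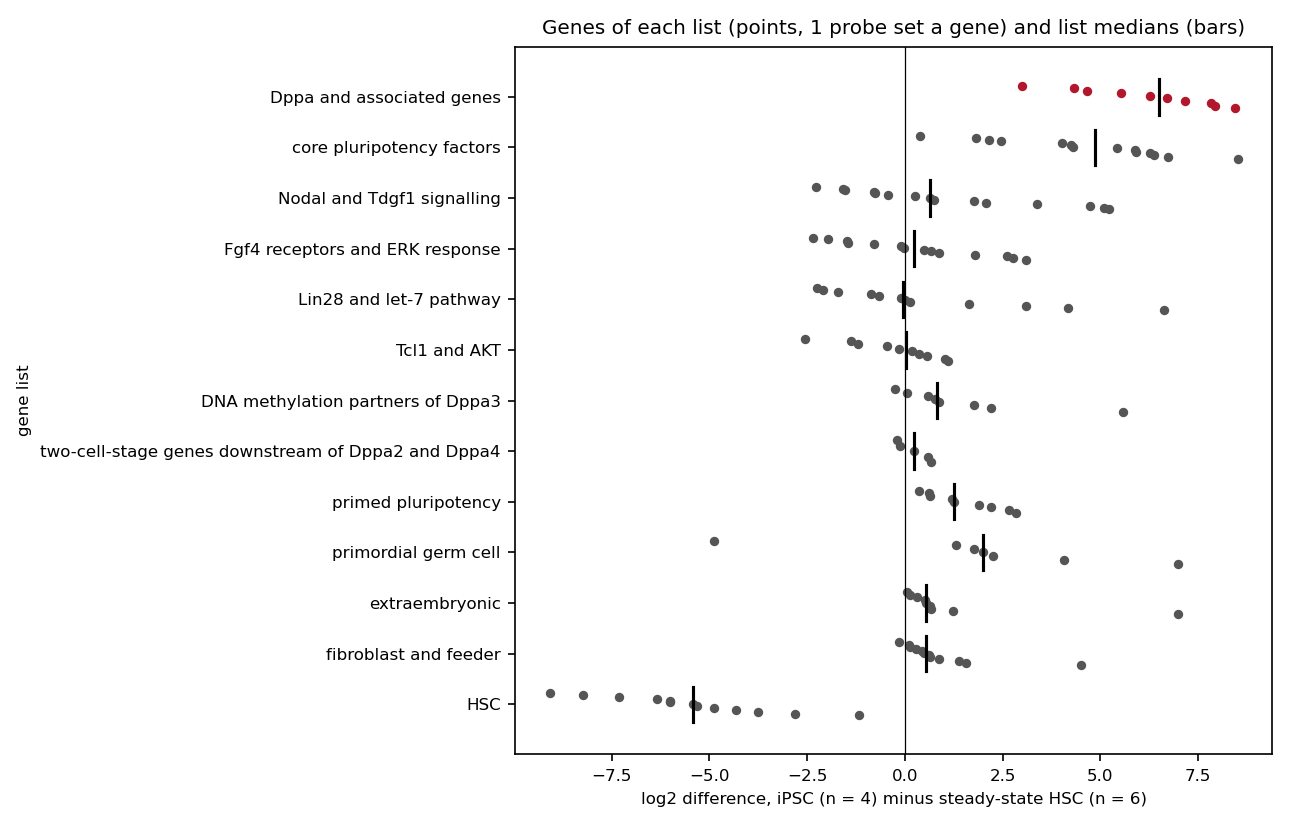
Log2 difference of iPSC (n = 4) minus steady-state HSC (n = 6) for the genes of each list, with 1 point a gene and a bar at the list's median. The 10 genes described here lie between 3.00 and 8.44 with a median of 6.49, the core factors have a median of 4.86, and the HSC genes lie below 0.

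The genes whose pattern over the 16 arrays was most like the mean of the 10 members were Trap1a (Pearson r = 0.9991), Mpzl2 (0.9988), Ptgis (0.9988), Cdh1, which encodes E-cadherin (0.9987), and Sox2 (0.9984). These r describe 16 arrays that fall into a pluripotent and an HSC cluster, so they mostly measure how flat a gene is within each. Among the members, r with the mean of the other 9 ran from 0.9524 for Utf1 to 0.9992 for Dppa5a. Over the 6 pluripotent arrays alone, the 45 pairs of members had r from -0.82 to 0.90, of which 26 were above 0.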

How the data were processed

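The authors deposited 1 table of intensity values for 45101 probe sets and 16 arrays, which ran from 4.53 to 31493 on a linear scale. Per the labels' protocols, the arrays carried biotinylated cRNA made by Affymetrix's standard method; the summarisation and normalisation steps are not given in the sources used here. They were put on the log2 scale with no pseudocount. Genes were named from a platform annotation table: 34945 non-control probe sets had 1 gene symbol, 932 had several and 9160 were not named in it, and 18032 of 18193 genes matched RefSeq by identifier. Fits used limma 3.58.1 in R 4.3.3 across all single-symbol probe sets whose mean log2 level reached the 25th percentile (26209 probe sets), with Benjamini-Hochberg adjustment over all of them and calls at an adjusted p under 0.05. The fits held all 16 arrays (pluripotent cells against HSC, 9 residual degrees of freedom), 6 (iPSC and ESC, 3) or 10 (HSC, 6). The code was tested on simulated data. The number of arrays per group limits the precision. The members and lists were chosen with earlier results of these data known. Every member probe set was named, and of each list up to 4 genes with the smallest p in iPSC minus steady-state HSC. Outside this rule, Mael, Dazl and Otx2, which were not tested in that comparison, and some core factors of the closing section were named. Listed genes with no probe set of a single symbol were not analysed here. The GC-box, KLF-variant and TATA-like motifs were added after the sequences were seen. The alternatives are named in the closing section.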

Additional observations from a re-analysis of the deposited data

Results flagged for a closer look

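Among 51 groups of 4 or 6 arrays tested for a value apart from the others, 3 were found, where chance gives about 1 in 20. Lin28a 1437752_at was 4.64 log2 on young steady-state array 1, against 3.38 to 3.75 on the other 5 steady-state HSC arrays. Tcl1 was 3.97 log2 on aged steady-state array 1, against 4.20 to 4.28 on the others. Utf1 1458333_x_at was 3.86 log2 on young transplanted array 2, against 4.43 to 4.52 on the other 3 transplanted HSC arrays. The difference between aged and young cells ran oppositely for Dppa2 1429654_at, at -0.18 log2 in iPSC and 0.23 in transplanted HSC, with no overlap of arrays in either. That opposition was not tested as such, and the probe set was dim on all 10 HSC arrays.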

How the results depend on the processing

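The alternatives were no dim filter or one at the 50th percentile, median centring or quantile normalisation of the arrays, pseudocounts of 1 and 64, 1 probe set a gene, an intensity trend with a robust prior, a required 2-fold change, other sets of arrays in the fit, the replicate number as a block, and each array left out in turn. Every probe set called against steady-state HSC was called in each alternative that tested it, and with an array left out the count was 15 or 16. With 1 probe set a gene, 10 of 10 were called in iPSC and 10 of 10 in ESC. Over all 13645 genes tested in that alternative, 5701 were called higher in iPSC and 4679 in ESC. Between iPSC and ESC, and between aged-origin and young-origin iPSC, no member was called under any of them, and the sign of 8 and 13 of the 17 small differences changed under at least 1. Between transplanted and steady-state HSC the 5 calls became 6 with quantile normalisation and 6 with median centring, where Dppa5a was added. They became 8 of 17 tested without the dim filter, 3 with a pseudocount of 64 and 1 with a required 2-fold change. With all 16 arrays in the fit they became 9 of 16 tested, against 5 of 7 in the fit reported. In that larger fit a probe set can pass the dim filter through its level in the pluripotent arrays alone. Lin28a 1437752_at, dim on 9 of the 10 HSC arrays, was tested and called there for that comparison. With the filter at the 50th percentile 1 was called, where only 1 member was tested. The cause of the change with the pseudocount was not tested. Over all 26209 probe sets tested, 17965 were called with quantile normalisation, 18543 with median centring and 19146 with all 16 arrays. The pseudocount of 64 gave 17651 calls and the required 2-fold change 11501. Without the dim filter 21731 of 34945 were called, and with the filter at the 50th percentile 12929 of 17473. Between aged and young transplanted HSC the count ranged from 0 to 1 when an array was left out. The calls over all probe sets ranged widely there, with 250 in the fit reported, 13 to 1237 under the other alternatives and 52 to 2551 with an array left out; for steady-state age they were 199, 105 to 343 and 84 to 305. Over all probe sets, iPSC minus ESC gave 25 calls, and 15 to 124 under the alternatives.

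Same-numbered arrays share only a number. Their deviations correlated at -0.09 in iPSC, -0.15 in transplanted HSC and 0.08, -0.30 and 0.20 in steady-state HSC, where 2 of 6 arrays correlated best with their own number. With the replicate block 0 members were called in each of the 3 age comparisons, and the calls over all probe sets were 3 in iPSC, 13 in transplanted and 105 in steady-state HSC. A crossed pairing of the transplanted arrays, chosen after seeing the data, gave 47 calls and 0 members.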

Other observations

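A core pluripotency factor outside the 10 genes, Esrrb, had a level in HSC that differed by setting in the same direction as Utf1 1416899_at. It averaged 3.89 and 3.86 log2 in aged and young transplanted HSC, against 6.70 and 6.77 in aged and young steady-state HSC. It averaged 8.90 ± 0.24 in iPSC (SD, n = 4) and 8.85 ± 0.51 in ESC (SD, n = 2). Esrrb was dim on 4 of the 10 HSC arrays. Pou5f1, Nanog, Nr0b1 and Tbx3 had higher means in transplanted HSC. They were 4.66, 3.30, 4.21 and 5.65 there, against 4.51, 2.92, 3.76 and 4.94 in steady-state HSC. Nanog was dim on all 10 HSC arrays. The remaining core factors had lower means in transplanted HSC, as Esrrb did. Among them were Klf4 (5.36 against 8.62), Tfcp2l1 (4.72 against 6.06), Klf5 (4.48 against 5.08) and Sall4 (4.24 against 4.99). The Klf4 arrays were widely scattered, with an SD of 1.1 in transplanted and 2.2 in steady-state HSC. Between transplanted and steady-state HSC 69.2% of all probe sets were called. Esrrb was chosen after its values were seen, as were the other core factors given here, and no test was made of the likeness. Among the 86 genes with an SD of at least 0.5 over the 6 pluripotent arrays, those most like Dppa3 were Fermt3 (r = 0.9476), Rhox9 (0.8164), Pink1 (0.7994), H13 (0.7232) and Smco4 (0.7038), as a description over 6 arrays that share culture and array processing.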
